A study of Mus musculus with 6 samples.

Results

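Imprinted genes are described here in mouse myoblasts with and without a DUX-family transcription factor. The 36 genes were taken by symbol from a list of well-known imprinted genes, and all 36 are among the 24028 genes of the deposited count table. They belong to 19 loci. Of these genes, 21 at 14 loci had enough counts to be tested, and 15 had at most 14 counts in any library.

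The cells were MMH6, a single clone of C2C12, an immortalised mouse myoblast line. All 6 cultures carried the same codon-altered, doxycycline-inducible transgene, MMH, in which the homeodomain-containing part of mouse Dux is followed by the carboxy-terminal part of human DUX4. The uninduced group was 3 cultures without doxycycline, and the induced group was 3 separate cultures with 2 µg/ml doxycycline. Induction lasted 18 h per the series text and 36 h per the sample protocol, and every value below carries this uncertainty. Drug-treated cells lacking the transgene were not analysed here, so effects of drug and transgene cannot be told apart.

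Genomic imprinting is the expression of a gene mainly from the copy inherited from 1 parent. For most such genes, though not all, the choice is set by DNA methylation laid down in egg or sperm at imprinting control regions. That methylation is kept in body cells by maintenance methylation and by zinc-finger proteins that protect those regions. Imprinted genes lie in clusters in which a long non-coding RNA often silences its neighbours in cis. Many act on fetal growth, and in muscle precursors H19, Igf2 and Peg3 are known for links to growth and differentiation. These counts add both alleles together, so they do not show which parental copy was read. In bulk RNA, fewer cells expressing a gene and less RNA per cell cannot be told apart.

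Libraries held 21.5 to 24.5 M counts. Levels are CPM, the counts of a gene per M counts, on library sizes scaled by trimmed mean of M values (TMM), and fold changes are log2, induced against uninduced, from edgeR with p-values adjusted over all 12969 tested genes. Myoblast markers were present in every library, at a summed 1791 to 1808 CPM without and 1097 to 1126 CPM with induction, and 2 of their 7 tested members rose while 5 fell. The 3 tested osteoblast markers fell, from a sum of 1440–1525 to 757–787 CPM. Most of that sum was Spp1, at a mean of 1418 CPM without and 740 CPM with induction. Adipocyte markers, of which 2 of 3 tested rose and 1 fell, went from 54.6–57.7 to 172–175 CPM, with Lep at 0 throughout and Adipoq and Plin1 at 0 in uninduced libraries. Most of that sum was Cebpa, which rose from a mean of 47.1 to 160 CPM. Fabp4 rose from 0.466 to 7.06 CPM, and Pparg fell from 8.74 to 6.89 CPM. Neuronal markers summed to 211–217 and 180–187 CPM, with 2 of 4 higher and 2 lower. Endothelial markers summed to 9.96–11.4 and 9.93–11.3 CPM, also with 2 of 4 in each direction. Both endothelial rises had enough counts to be tested only through the induced libraries, and so had to differ. Pecam1 had 3, 1 and 2 and then 12, 12 and 16 counts, and Tek had 7, 0 and 9 and then 24, 21 and 22. Leukocyte markers summed to 0.838–1.36 and 1.16–1.61 CPM and epithelial markers to 4.98–5.61 and 4.36–5.50 CPM, ranges that overlap between groups. The part of these shifts in the results below was not tested.

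Most of the imprinted genes that could be tested changed, and they changed in both directions. Of the 21, 12 rose and 7 fell at an edgeR adjusted p below 0.05, so that 90.5% were called. Among all tested genes the called share was 82.5%, so a call by itself says little about an imprinted gene. The share called higher was 57.1% of imprinted genes and 41.3% of all genes, and the share called lower was 33.3% and 41.2%. At least 2-fold rises were seen for 7 members, 33.3% of those tested, against 18% of all genes. Falls of at least 2-fold were seen for 4 members, 19.05% of those tested, against 12.7% of all genes. The median log2 fold change was 0.53 for imprinted genes and -0.01 for all genes. Phlda2 is in these counts although it passed the filter on low counts only through the induced libraries, and had to differ. Without it, 11 of 20 rose, 6 of them at least 2-fold, and the median was 0.42. In 19 of the 21 the uninduced and induced libraries did not overlap, as was true of 83.1% of all genes.

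Genes usually read from the maternal copy and those usually read from the paternal copy were not separated by direction. Of 8 tested maternal genes, 5 rose and 2 fell, with a median log2 fold change of 0.53. The 5 include Phlda2, which was tested only through the induced libraries and had to differ. Among the 12 tested paternal genes, 7 rose and 5 fell, or 58.3% and 41.7%, with a median of 0.46. Of all tested genes, 41.3% were called higher and 41.2% lower. Both medians lie near each other, and neither class moved as a block. Parental class here is textbook background, and for several genes it holds only in some tissues.

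The split between rises and falls depended on how libraries were scaled. TMM factors averaged 1.40 in uninduced and 0.716 in induced libraries. When libraries were scaled by size alone, the median of all tested genes was -0.97, and 5 imprinted genes were called higher and 13 lower. Of all 12969 tested genes, 1977 were then called higher and 9949 lower. Rises of at least 2-fold then numbered 1 among imprinted genes, against 8.38% of all genes, and such falls 8, against 48.9%. That 1 rise was Phlda2, at 4.39, which passed the filter on low counts only through the induced libraries. The next highest value was 0.74, for Igf2r. The 7 falls and the rises of Phlda2, Kcnq1ot1, Igf2r, Zrsr1 and Plagl1 were called in the same direction under that scaling, Grb10 and Airn stayed above 0 without a call, and Mest, Peg10, Ube3a, Trappc9 and Peg12 turned negative. Upper-quartile scaling shifted the median of all genes to -0.16.

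**Figure D1:**
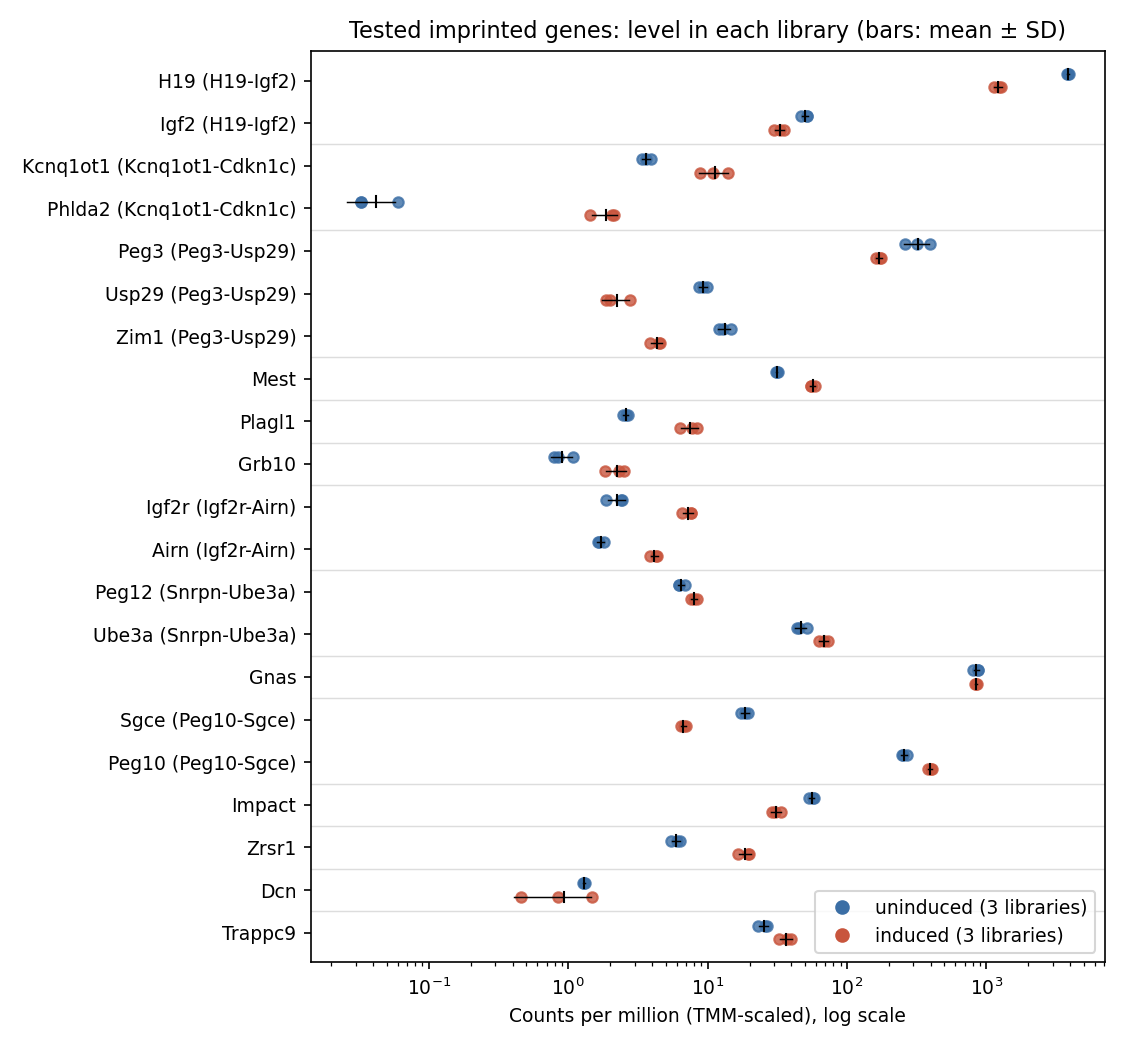
Level of each of the 21 tested imprinted genes in each library, in TMM-scaled CPM on a log axis, grouped by locus. Points are single libraries, 3 uninduced and 3 induced, and bars give the mean ± SD. H19 has the highest CPM in both groups, and the groups overlap for Gnas and Dcn.

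At the H19-Igf2 locus on chromosome 7 both genes fell. H19, a maternally expressed long non-coding RNA (GRCm38 chr7:142575530-142578146, minus strand), stood at 3902, 3801 and 3842 CPM in uninduced libraries and at 1133, 1228 and 1284 CPM in induced libraries. All 3 induced libraries were lower than every uninduced one. The means were 3848 ± 50.5 and 1215 ± 76.5 CPM (SD, n = 3). By edgeR this was -1.66 ± 0.04 on the log2 scale (SE, adjusted p = 1.5e-20). Only 3.81% of tested genes had a lower log2 fold change. H19 ranked number 4 among all genes by mean CPM in uninduced cells and number 73 in induced cells.

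Igf2 encodes a fetal growth factor that signals through the IGF1 and insulin receptors and is usually read from the paternal copy. The gene lies at chr7:142650768-142666816, minus strand, 72.6 kb from H19. Its levels were 51.4, 47.2 and 52.0 CPM without and 30.2, 35.4 and 32.9 CPM with induction, with no overlap. The log2 fold change was -0.61 ± 0.06 (edgeR adjusted p = 2.9e-09). Igf2os, an antisense transcript whose exons share 98 bases with those of Igf2, had 26, 16 and 23 and then 4, 1 and 7 counts. It passed the filter on low counts only through the uninduced libraries, and had to differ. Its fitted fall of 1.51 on the log2 scale, from 0.683 CPM, is therefore a description. The strand setting of the read counts is not given in the sources used here, so reads of such overlapping partners cannot be told apart.

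Because H19 was so abundant, it carried much of the imprinted signal. The 36 genes took 0.775 ± 0.0109% of all counts in uninduced and 0.210 ± 0.00324% in induced libraries (SD, n = 3), shares that do not depend on TMM. On the TMM scale their sum was 5500 to 5653 CPM without and 2872 to 2970 CPM with induction. H19 alone accounted for 69.3 ± 0.50% of the counts of all imprinted genes before and 41.5 ± 1.91% after induction. Per kilobase of exon, H19 stood at 1564 CPM in uninduced cells, followed by Gnas at 75.9, Peg10 at 38.5, Peg3 at 24.3, Impact at 10.9, Igf2 at 8.77 and Mest at 7.97. In induced cells the levels per kilobase were 494 for H19, 75.5 for Gnas, 59.4 for Peg10, 14.4 for Mest, 12.8 for Peg3, 6.05 for Impact and 5.74 for Igf2.

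H19, Igf2 and Mest each contain a microRNA hairpin on their own strand, as does Usp29. Mature microRNAs were not measured by these polyadenylated RNA libraries, and the changes given are those of the host transcripts only. The mature sequences of the first 3 hosts are shown because they are the small RNA products of transcripts that changed. They are from the RefSeq annotation of GRCm38.p6, written 5′ to 3′ with the seed, bases 2 to 8, in capitals.
miR-675-5p (H19): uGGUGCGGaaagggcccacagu
miR-675-3p (H19): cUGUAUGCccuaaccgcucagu
miR-483-5p (Igf2): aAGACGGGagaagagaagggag
miR-483-3p (Igf2): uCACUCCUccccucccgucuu
miR-335-5p (Mest): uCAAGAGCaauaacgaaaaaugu
miR-335-3p (Mest): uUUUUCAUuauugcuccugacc
All 8 mature microRNAs within tested imprinted genes, the pair in Usp29 included, had different seeds. The miR-675 hairpin lies at chr7:142577064-142577147, wholly within an exon of H19.

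The Peg3 domain at the other end of chromosome 7 held 3 tested genes, and all 3 fell. Usp29, which codes for a member of the ubiquitin-specific protease family and is paternally expressed (chr7:6730559-6967220, plus strand), was at 8.65, 9.96 and 9.24 CPM without induction. With induction it was at 1.88, 2.78 and 2.01 CPM. The groups were far apart, with a log2 fold change of -2.07 ± 0.15 (edgeR adjusted p = 3.8e-12). Only 1.93% of tested genes had a lower value.

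Zim1, a maternally expressed zinc-finger gene (chr7:6674444-6696540, minus strand), had 14.7, 13.005 and 12.1 CPM in uninduced and 4.50, 3.88 and 4.53 CPM in induced libraries. Its log2 fold change was -1.62 ± 0.12 (edgeR adjusted p = 5.3e-12), and the groups did not overlap. Peg3 (chr7:6703892-6730462, minus strand) encodes a large zinc-finger protein, is paternally expressed, and had the highest CPM of the tested genes of the domain. It stood at 393, 317 and 261 CPM in uninduced libraries and 177, 173 and 161 CPM in induced libraries. Every induced library was below every uninduced one, although the uninduced libraries were themselves spread.

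The Peg3 means were 324 ± 66.5 and 170 ± 8.17 CPM (SD, n = 3). By edgeR the difference was -0.93 ± 0.17 on the log2 scale (adjusted p = 0.00523). With each library left out in turn it ranged from -1.07 to -0.77. The coefficient of variation of Peg3 among uninduced libraries was 20.5%, whereas the median over the 1505 genes at 100 CPM or more was 3.20%. Among those genes only Neat1, a nuclear long non-coding RNA, varied more, at 20.8%.

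Peg3 and Usp29 are transcribed away from each other, with 96 bases between their annotated ends. Their promoter windows, 250 bases before to 50 after the annotated start, overlap by 263 bases. The Usp29 window is shown because these genes share it and both fell. It is RefSeq GRCm38.p6 chr7:6730333-6730632, plus strand, 5′ to 3′, with each of its 17 CpG dinucleotides in capitals; its GC content is 63.7%.
Usp29 promoter window: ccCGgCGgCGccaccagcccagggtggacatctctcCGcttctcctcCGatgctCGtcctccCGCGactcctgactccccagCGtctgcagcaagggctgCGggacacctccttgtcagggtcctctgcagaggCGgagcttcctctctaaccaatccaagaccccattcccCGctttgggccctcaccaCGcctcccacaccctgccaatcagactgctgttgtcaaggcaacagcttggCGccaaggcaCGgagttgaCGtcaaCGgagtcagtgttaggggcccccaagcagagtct
Windows were present for 28 of the 36 genes and 15 of the 21 tested genes. The 46 windows of imprinted genes held a median of 11.5 CpG dinucleotides and the 24 windows of tested genes 17, and all 32851 windows, of tested and untested genes alike, 7.

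**Figure D2:**
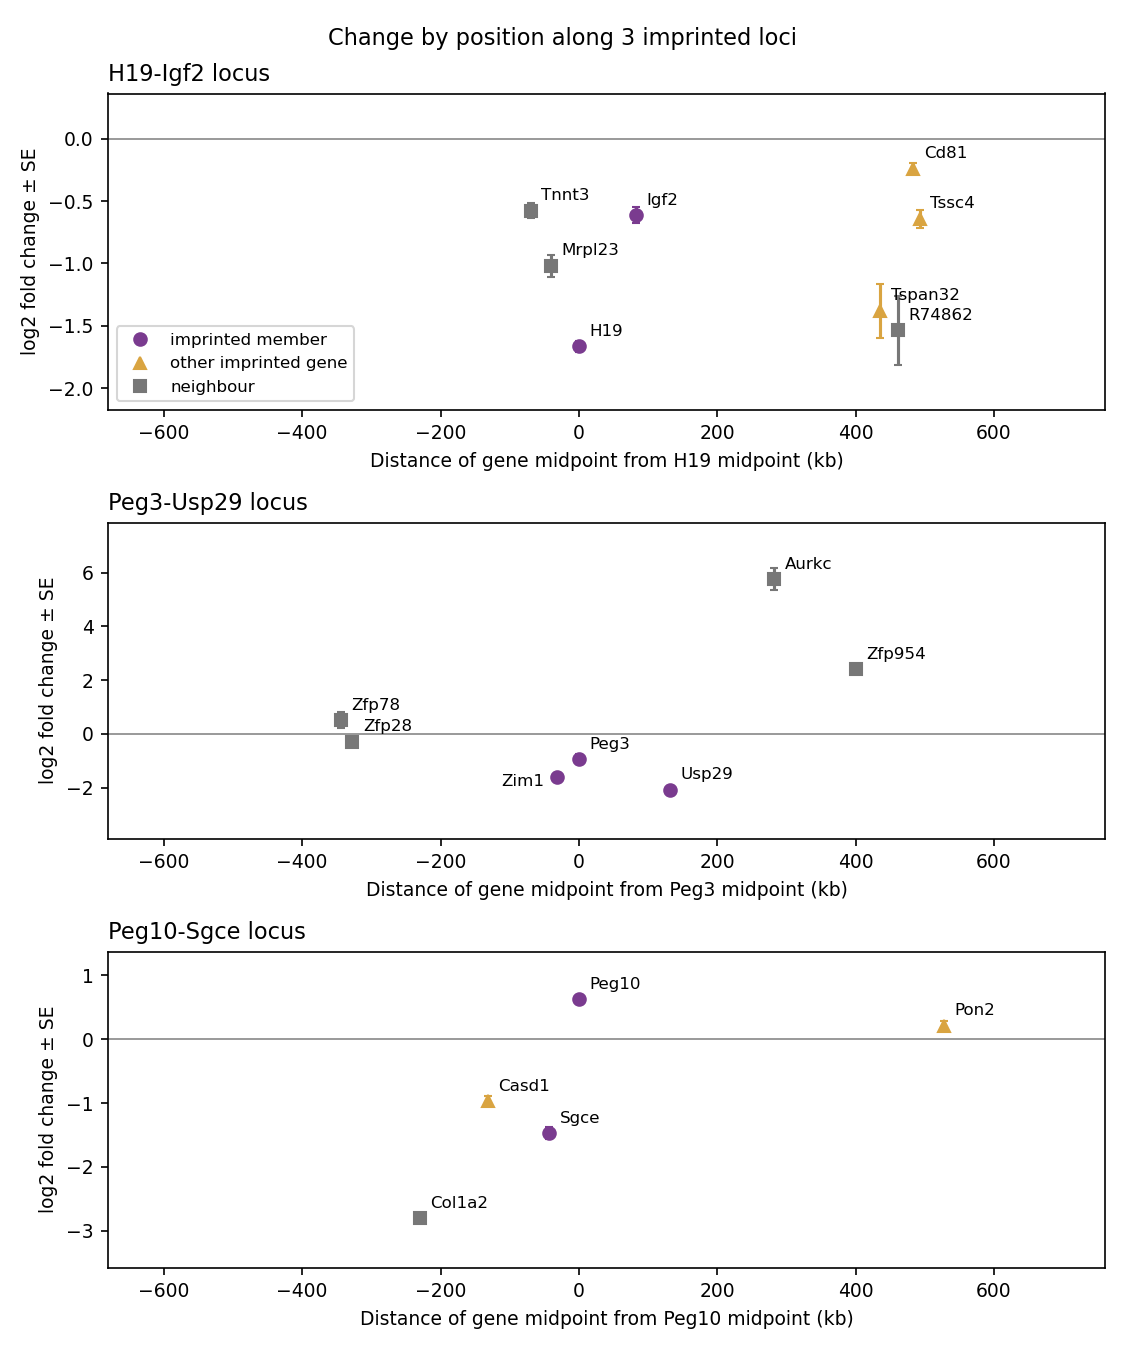
The log2 fold change ± SE of tested genes within 600 kb of H19, Peg3 and Peg10, by distance of gene midpoint in kb. Circles are the imprinted genes described here, triangles other imprinted genes and squares neighbours that are on neither list. Usp29, Zim1 and Peg3 lie below 0 while Aurkc lies at 5.76, and Sgce and Peg10 lie on opposite sides of 0. Aurkc passed the filter on low counts only through the induced libraries.

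At the Peg10-Sgce locus on chromosome 6 the paired genes moved in opposite directions under TMM. This was the only 1 of the 6 loci with several tested members that had calls in both directions. Sgce encodes epsilon-sarcoglycan, a membrane glycoprotein related to the muscle sarcoglycans (chr6:4674350-4747204, minus strand). It fell from 18.6, 19.6 and 17.4 CPM to 6.44, 6.73 and 6.94 CPM. Its log2 fold change was -1.47 ± 0.09 (edgeR adjusted p = 4.0e-13).

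Peg10, a retrotransposon-derived gene needed for placental development (chr6:4747306-4760517, plus strand), begins 101 bases from Sgce and is also paternally expressed. It stood at 269, 248 and 253 CPM in uninduced and 406, 402 and 380 CPM in induced libraries, again without overlap. Peg10 was at 0.62 ± 0.04 on the log2 scale (edgeR adjusted p = 1.9e-12) with TMM, and at -0.34 with library size only. Ppp1r9a and Asb4, which encode neurabin and a suppressor-of-cytokine-signalling-box protein, had at most 10 counts in any library and were not tested.

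At the Kcnq1ot1-Cdkn1c-Phlda2 locus on chromosome 7 the 2 tested genes rose. Kcnq1ot1 is a paternally expressed long non-coding RNA transcribed antisense to Kcnq1 (chr7:143213111-143296547, minus strand), and it silences neighbouring genes in cis. It had 3.41, 3.62 and 3.90 CPM without and 8.89, 14.1 and 11.0 CPM with induction. All induced libraries were higher, with a log2 fold change of 1.63 ± 0.14 (edgeR adjusted p = 9.7e-10). Kcnq1 itself had no count in any library.

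Phlda2, a maternally expressed gene for a small pleckstrin-homology-domain protein that limits placental growth (chr7:143501545-143503145), was almost without reads in uninduced cells. Its raw counts were 2, 1 and 1 without and 36, 22 and 37 with induction, or 0.0417 ± 0.0158 and 1.87 ± 0.385 CPM (SD, n = 3), with no overlap. The ratio was 44.7, with an exact 95% counting interval of 16.9 to 167 (counting error only). The fitted log2 value, 5.32, is a description, since the gene was tested only through its induced counts. Cdkn1c, the maternally expressed cyclin-dependent kinase inhibitor p57, had 3, 0 and 2 counts without and 13, 14 and 4 with induction. Cdkn1c was too low for the main test; the ratio was 11.7, with a counting interval of 4.50 to 38.4.

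At the Igf2r-Airn locus on chromosome 17 both genes rose under TMM. Igf2r, the maternally expressed receptor that carries IGF2 to lysosomes (chr17:12682406-12769706), was at 2.42, 2.39 and 1.87 CPM in uninduced and 7.64, 6.60 and 7.58 CPM in induced libraries. The groups were separate, with a log2 fold change of 1.70 ± 0.14 (edgeR adjusted p = 1.0e-10). Airn, the paternally expressed RNA that starts within Igf2r on the other strand (chr17:12741311-12859884), went from 1.68, 1.81 and 1.64 CPM to 3.88, 4.34 and 4.25 CPM. Its log2 fold change was 1.28 ± 0.17 (edgeR adjusted p = 2.0e-07). Thus the silencing RNA and the receptor gene it overlaps were both higher.

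Grb10, an adaptor that binds the insulin and IGF receptors (chr11:11930499-12037428), was at 1.08, 0.841 and 0.787 CPM without and 1.82, 2.33 and 2.53 CPM with induction. It rose by a log2 value of 1.29 ± 0.24 (edgeR adjusted p = 2.7e-05). Plagl1, a paternally expressed zinc-finger transcription factor (chr10:13090832-13131694), was at 2.60, 2.69 and 2.46 CPM and then at 8.38, 7.70 and 6.31 CPM. Its log2 fold change was 1.53 ± 0.14 (edgeR adjusted p = 4.8e-10). Neither gene had overlapping groups, although under library size alone Grb10 and Airn were at 0.33 and 0.31 without a call.

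Mest, a paternally expressed gene for a hydrolase-family protein of mesoderm (chr6:30733506-30748466), was at 31.2, 31.4 and 31.8 CPM in uninduced libraries. In induced libraries it was at 55.4, 55.5 and 59.5 CPM, well apart from the uninduced group. Mest rose by 0.85 ± 0.05 on the log2 scale (edgeR adjusted p = 4.1e-13) with TMM, but was at -0.11 with library size only. Copg2, on the opposite strand with 912 shared exon bases, fell by 0.59 on the log2 scale.

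In the Snrpn-Ube3a region of chromosome 7, the Prader-Willi and Angelman syndrome region in human, Ube3a had the highest CPM of the imprinted genes listed. It encodes a ubiquitin ligase that is maternally expressed in neurons (chr7:59228750-59310837). Its levels were 51.7, 45.6 and 43.5 CPM without and 68.8, 73.2 and 63.4 CPM with induction, with no overlap. Under TMM it rose by 0.54 ± 0.06 on the log2 scale (edgeR adjusted p = 1.3e-07), but it was at -0.42 with library size only. Snhg14, the antisense transcript with 1803 exon bases shared with Ube3a, fell by 1.57 from 2.55 CPM.

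Peg12, a paternally expressed gene of the Frat family (chr7:62461871-62464510), was at 6.29, 6.24 and 6.88 CPM and then at 8.43, 7.96 and 7.58 CPM. It gave the weakest call, with a log2 fold change of 0.31 ± 0.11 (edgeR adjusted p = 0.0132). That call was lost with DESeq2, with upper-quartile scaling, with no filter on low counts, without induced replicate 1 (edgeR adjusted p = 0.0585) and at a threshold of 0.01; over the alternatives the adjusted p ran from 4.47e-06, for a fall of 0.66 with library size only, to 0.182. Snrpn, which encodes a small nuclear ribonucleoprotein, had at most 6 counts in any library. Magel2, a MAGE-family gene, had at most 2, and Ndn, which encodes necdin, had none. Snurf, which shares 216 exon bases with Snrpn on the same strand, had 19, 25 and 17 and then 27, 11 and 14 counts. It was tested and not called (log2 fold change 0.67, edgeR adjusted p = 0.0644). How reads that fit both Snurf and Snrpn were counted is not given in the sources used here.

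Gnas, which encodes the stimulatory G-protein alpha subunit and several other imprinted transcripts (chr2:174284320-174346744), was the second most abundant member per kilobase and was not called. Its values were 807, 869 and 872 CPM without and 862, 824 and 848 CPM with induction, and the groups overlapped. The log2 fold change was -0.01 ± 0.04 (edgeR adjusted p = 0.873). This value depended on scaling: it was -0.15 with upper-quartile factors (edgeR adjusted p = 0.00207) and -0.97 with library size only (edgeR adjusted p = 4.08e-17), close to the median of all genes under each scaling. Over all alternatives the adjusted p ran from 4.08e-17 to 0.914. A gene total cannot separate the Gnas transcripts, which differ in parental origin.

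Impact, a paternally expressed regulator of translation under amino-acid stress on chromosome 18, stood at 53.2, 56.7 and 57.6 CPM without induction. With induction it was at 28.8, 33.8 and 30.5 CPM, below every uninduced library. Impact fell by 0.85 ± 0.06 on the log2 scale (edgeR adjusted p = 5.0e-12). Trappc9, which encodes a subunit of the TRAPP vesicle-tethering complex (chr15:72589620-73061238), was at 26.0, 26.7 and 23.2 CPM and then at 37.3, 39.7 and 32.6 CPM. It rose by 0.53 ± 0.07 on the log2 scale with TMM (edgeR adjusted p = 6.8e-07) but was at -0.44 with library size only.

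Zrsr1 is a paternally expressed retrogene related to splicing factor U2AF (chr11:22972005-22976496) that lies within Commd1. It had 6.35, 5.50 and 5.999 CPM in uninduced and 16.5, 19.5 and 19.9 CPM in induced libraries. All induced libraries were higher, with a log2 fold change of 1.65 ± 0.10 (edgeR adjusted p = 1.4e-13). Commd1, on the opposite strand with 412 shared exon bases, fell by 0.52. The related gene Zrsr2 on the X chromosome was at 27.9 and 30.3 CPM, with a log2 fold change of 0.12 (edgeR adjusted p = 0.0789). How reads that fit both copies were counted is not given in the sources used here, so the Zrsr1 value is uncertain to that extent.

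Dcn, a gene for the matrix proteoglycan decorin (chr10:97479500-97518163), was the other tested member without a call. It was at 1.29, 1.29 and 1.31 CPM in uninduced libraries and at 0.456, 0.841 and 1.49 CPM in induced libraries, so the groups overlapped through 1 induced library. Dcn had a log2 fold change of -0.47 ± 0.31 (edgeR adjusted p = 0.153). Without induced replicate 3 it was -1.02 (edgeR adjusted p = 0.0108), and over the alternatives the adjusted p ran from 8.68e-05 to 0.702.

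**Figure D3:**
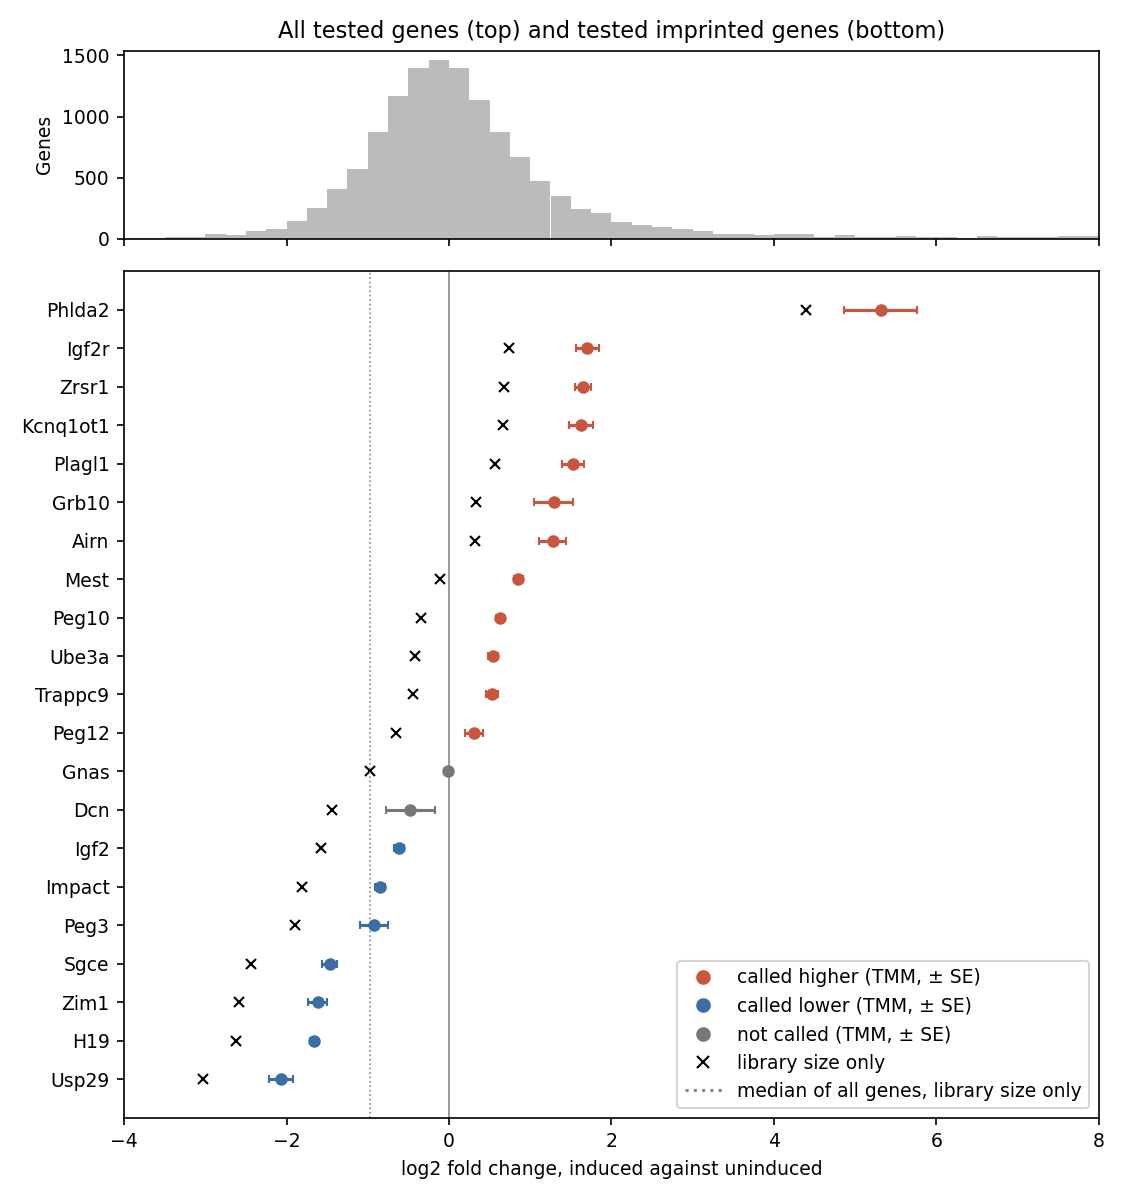
Bottom: log2 fold change of the 21 tested imprinted genes, ordered by size, with SE bars under TMM and a cross for the value with library size only. Top: number of tested genes by log2 fold change, within the range of the axis. The genes run from -2.07 for Usp29 to 5.32 for Phlda2, and the crosses of Mest, Peg10, Ube3a, Trappc9 and Peg12 lie on the other side of 0 from their points.

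At 5 of the 19 loci no gene could be tested. The Dlk1-Meg3 locus on chromosome 12 was close to unread in both groups. Dlk1, a paternally expressed transmembrane protein with EGF-like repeats, had no count in any of the 6 libraries. Its neighbour Rtl1, a retrotransposon-derived gene, had 1, 0 and 0 counts without and 4, 0 and 1 with induction. The maternally expressed non-coding RNA Meg3 had 0, 0 and 0 and then 0, 0 and 2 counts, Rian had 1, 1 and 1 and then 1, 0 and 1, and Mirg had 0, 1 and 0 and then 1, 3 and 0. A count of 0 allows up to 3 counts in a library, which is 0.0898 to 0.0983 CPM without induction and 0.171 to 0.194 CPM with it. A change below these levels was not detectable at this depth.

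Flanking genes outside the Dlk1-Meg3 cluster varied in level. Without and with induction, Wdr25 was at 4.04 and 2.55 CPM and Wars, farther out, at 44.1 and 48.8 CPM. On the other side Ppp2r5c was at 72.3 and 64.0 CPM and Dync1h1 at 333 and 386 CPM. Begain and Dio3, which lie nearer to the cluster and are also reported as imprinted, had at most 4 and 2 counts and were not tested. Annotated microRNA genes within Meg3, Rian, Mirg and Rtl1 number 30, and their products were not measured. Among the other untested genes, Rasgrf1, a Ras guanine-nucleotide exchange factor, also had no counts. Nnat, which encodes neuronatin, had 9, 1 and 3 and then 7, 8 and 2 counts. Slc38a4, an amino-acid transporter gene, had 7, 5 and 5 and then 1, 3 and 5, and Zdbf2, a zinc-finger gene, had 1, 1 and 0 and then 6, 0 and 2. Ppp1r9a had 3, 1 and 0 and then 5, 6 and 6 counts.

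The ratio of 2 genes within a library does not depend on how libraries are scaled, and it was computed for the 5 of 16 pairs of a locus in which both genes had at least 10 counts in every library. In none of these pairs did the groups overlap. Taken singly, 83.1% of all tested genes had groups that did not overlap, and the share for other pairs of genes was not computed. Sgce to Peg10 differed most. Its log2 count ratio went from -3.79 ± 0.113 to -5.88 ± 0.103 (SD, n = 3), so that Sgce was 4.27-fold lower relative to Peg10 in induced cells. Igf2 to H19 went the other way, from -6.26 ± 0.0640 to -5.21 ± 0.0859, a 2.07-fold increase of Igf2 relative to H19.

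Within the Peg3 domain, Usp29 and Zim1 both stood lower relative to Peg3 with induction. The log2 ratio of Usp29 to Peg3 was -5.51, -4.99 and -4.82 without and -6.56, -5.95 and -6.33 with induction, a difference of -1.17. For Zim1 to Peg3 the difference was -0.71, and for Airn to Igf2r it was -0.43. The exact two-sided permutation p was 0.1 for each of the 5 pairs, also after Benjamini-Hochberg adjustment; it is the smallest that 3 against 3 libraries allow, so this test cannot reach 0.05.

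**Figure D4:**
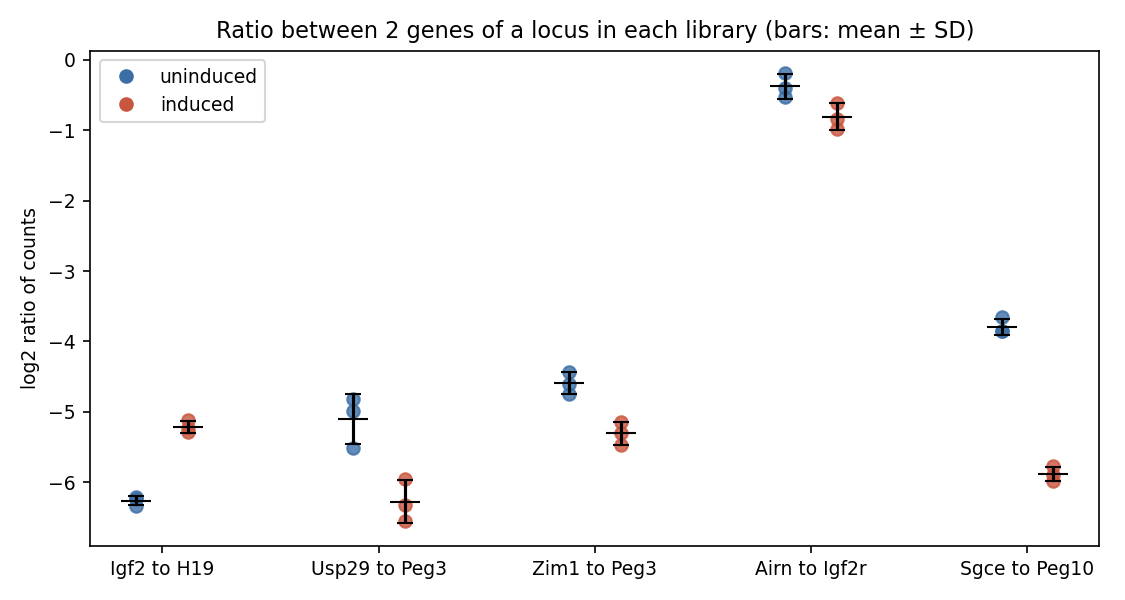
The log2 ratio of raw counts between 2 genes of a locus in each library, for 5 pairs. Points are libraries, 3 uninduced and 3 induced, and bars are mean ± SD. The groups are separate in all 5 pairs, and only Igf2 to H19 is higher in induced cells. The share of separate groups among other pairs of genes was not computed.

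The nearest tested genes that are on neither imprinted list used here moved in both directions too. Of 74 such neighbours, up to 2 on each side of a locus, 25 rose and 39 fell. These were 33.8% and 52.7%, against 41.3% and 41.2% of all tested genes, with a median log2 fold change of -0.28. Neighbours that passed the filter on low counts through 1 group only are included, such as 4930512M02Rik (0.0526 to 2.72 CPM) and 4732491K20Rik (0.697 to 0.138 CPM). Distances ran up to 4715 kb, for Egfr from Grb10. Igf2os, which overlaps Igf2 and passed that filter only through the uninduced libraries, is also included. Next to the falling Peg3 domain, Aurkc, a kinase gene best known from germ cells, rose from 0.0418 ± 0.0363 to 2.56 ± 0.250 CPM (log2 fold change 5.76 ± 0.42). Like Phlda2, Aurkc passed the filter on low counts only through the induced libraries, so its fitted value is a description. Zfp954, a zinc-finger gene 147 kb away, rose from 7.20 to 38.1 CPM. Usp29 lies between genes that fell with it and genes that rose.

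Beside Sgce, by contrast, the neighbours tested fell. Col1a2, a collagen I chain, went from 115 to 16.5 CPM (log2 fold change -2.80 ± 0.07), and Pdk4, a kinase that inhibits pyruvate dehydrogenase, fell by 1.08 on the log2 scale. Bet1 and Dync1i1 fell by 0.44 and 1.95. Dync1i1, at 1.16 CPM without and 0.291 CPM with induction, passed the filter on low counts only through the uninduced libraries, so its fitted value is a description. Near H19, the mitochondrial ribosomal-protein gene Mrpl23 fell by 1.02 and the troponin gene Tnnt3 by 0.58. Genes flanking these loci were thus not uniform either within a locus or between loci.

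A second list of 44 further genes reported as imprinted in mouse had 25 tested members. Of these 8 rose and 16 fell, or 32.0% and 64.0%, against 41.3% and 41.2% of all tested genes. The median log2 fold change was -0.52. With library size only, 2 rose and 21 fell, against 1977 and 9949 of all 12969 tested genes. Mkrn3, a paternally expressed ring-finger gene beside Peg12, rose from 2.67 ± 0.201 to 13.1 ± 1.19 CPM (log2 fold change 2.29 ± 0.12). Gab1, an adaptor of receptor tyrosine kinases, rose from 16.3 ± 2.07 to 51.5 ± 3.97 CPM (1.66 ± 0.08). By the rule for naming, which asks for a mean of 1 CPM over the libraries, the falls were Tspan32, a tetraspanin gene, at -1.38 ± 0.22, and Jade1, a chromatin-reader gene, at -1.01 ± 0.06. Ano1, a chloride-channel gene below that level and named after its value was seen, had the lowest value of the list, -2.77. Ano1, Ddc and Smoc1 passed the filter on low counts only through the uninduced libraries, and had to differ. They are included in the 16 that fell and in the median, and their fitted values are descriptions.

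The genes that set or keep imprints, 27 in number, changed in both directions without a common sign. Of 23 tested, 12 rose, 6 fell and 5 were not called, a called share of 78.3% against 82.5% of all tested genes. The shares were 52.2% higher and 26.1% lower, against 41.3% and 41.2%. With library size only, 3 rose and 17 fell, against 1977 and 9949 of all 12969 tested genes. Ctcfl, the germ-cell relative of the insulator protein CTCF, rose from 2.48 ± 0.412 to 11.1 ± 0.374 CPM (log2 fold change 2.17 ± 0.13), and Arid4a, a chromatin-protein gene, rose from 14.6 to 60.6 CPM (2.05 ± 0.07). Tet3, a methylcytosine dioxygenase, fell from 49.3 to 16.9 CPM (-1.55 ± 0.07). Zfp445, a zinc-finger protein that protects imprinting control regions, fell from 65.2 to 41.3 CPM (-0.66 ± 0.06).

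The maintenance methyltransferase gene Dnmt1 had a log2 fold change of -0.58, and its partner Uhrf1 one of 0.86. Trim28, the co-repressor recruited by such zinc-finger proteins, was at 0.94, and Ctcf at 0.18. With library size only, Uhrf1 was at -0.10 and Trim28 at -0.02. Zfp57 was at -0.14 and was not called (edgeR adjusted p = 0.115). DNA methylation was not measured in these libraries.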

How the data were processed

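Per the labels' protocols, total RNA from 6 cultures was made into libraries of polyadenylated RNA with a TruSeq kit. The submitters' processing notes name CASAVA, TopHat2 2.0.12, Bowtie2 2.2.3 and mm10, the same assembly as GRCm38. The deposited table holds raw counts for 24028 Entrez genes, 13 of them without a symbol. The counter, its strand setting and its handling of multiply mapped reads were not given in the sources used here. RefSeq GRCm38.p6, matched by 23968 identifiers, gave coordinates and sequences, and GENCODE vM21 gave exon lengths and overlaps.

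Counts were used as deposited in R 4.3.3, for the 12969 genes that filterByExpr kept at its defaults. Differences were tested with edgeR 4.0.16 (TMM factors, glmQLFit with robust=TRUE, two-sided glmQLFTest on group alone), and p-values were adjusted by Benjamini-Hochberg across tested genes, with calls at 0.05. Standard errors were obtained by dividing each log2 fold change by the square root of its F value. CPM values use TMM-scaled library sizes. With totals of 21.5 to 24.5 M counts, 3 counts equal 0.0898 to 0.194 CPM. Counting intervals are exact binomial at 95%, and intervals and floors cover counting error only. The biological coefficient of variation was 4.27%. Replicate pairs differed by more than sampling noise (chi-square per degree of freedom 2.48 to 7.09), so each library counted once. The series text gives separate cultures of 1 clone, and p-values measure the spread between those cultures.

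The imprinted genes and the other lists (further imprinted genes, imprint control factors, cell type markers) were chosen with earlier results of these data known. All 36 imprinted genes are accounted for. Of the further lists, the 2 largest rises and falls at a mean over the 6 libraries of 1 CPM or more were named. Dnmt1, Uhrf1, Trim28, Ctcf, Zfp57, Neat1, Ano1, Mcts2, H13, Spp1, Cebpa, Fabp4 and Pparg were picked after values were seen. Pecam1, Tek, Ddc, Smoc1, Begain and Dio3 were also picked then. So were the neighbours and overlapping partners named from those tabulated. Alternatives were DESeq2 1.42.0, limma-voom (limma 3.58.1), scaling by RLE, by upper quartile or by library size only, a stricter and no count filter, glmQLFit without robust=TRUE, a block on replicate number, leaving out each library, and calls at 0.01.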

Additional observations from a re-analysis of the deposited data

How the results depend on the processing

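Of 375 alternative values of single genes and ratios, 354 kept their direction and, for single genes, their side of the threshold. Ratios were judged by direction alone. Of 98 counts or shares of called genes, 93 stayed within 1.5 times the value reported. The scaling of libraries mattered most. Among all 12969 tested genes, calls higher went from 5351 with TMM to 1977 with library size only, and calls lower from 5347 to 9949. With library size only, imprinted genes called higher went from 12 to 5 and those called lower from 7 to 13, the further imprinted genes called higher from 8 to 2, and the imprint control factors called higher from 12 to 3 and lower from 6 to 17. Mest then had a log2 fold change of -0.11, Peg12 -0.66, Ube3a -0.42, Peg10 -0.34 and Trappc9 -0.44, and Gnas, at -0.97, and Dcn, at -1.43, were called lower. With upper-quartile scaling 11 imprinted genes were higher and 8 lower.

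Gnas, near 0 and not called with TMM, changed sign to 0.0104 with RLE scaling, 0.0076 with a filter at 30 counts, 0.0063 without uninduced replicate 2, 0.0065 without uninduced replicate 3 and 0.012 without induced replicate 2, and over libraries left out ranged from -0.046 to 0.012. With each library left out in turn, 11 to 13 imprinted genes were higher and 7 to 8 lower, 7 to 9 and 14 to 16 of the further list, and 12 to 13 and 5 to 6 of the control factors. The ratio differences then ranged from 1.00 to 1.09 for Igf2 to H19, -1.37 to -1.03 for Usp29 to Peg3, -0.79 to -0.63 for Zim1 to Peg3, -0.53 to -0.34 for Airn to Igf2r and -2.15 to -2.03 for Sgce to Peg10.

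The labels do not say whether replicate numbers pair the samples. Same-numbered libraries had deviations correlated at 0.0787, 0.00739 and 0.0615, and differently numbered ones at -0.0671 to 0.00674. The same-numbered values were the higher ones but were small, so pairing was not settled. A replicate block left 12 imprinted genes higher and 7 lower, 8 and 16 of the further list and 12 and 6 of the control factors.

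Depth limits the 15 untested genes. With no filter on low counts, edgeR called Cdkn1c (3.36), Ppp1r9a (2.79) and Zdbf2 (2.57) higher, and DESeq2 called Cdkn1c (3.56) and Ppp1r9a (3.01). These log2 values rest on at most 14 counts in a library.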

Other observations

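Paternally expressed retrogenes that lie inside a larger imprinted gene were higher in 2 cases with TMM while the host was lower. Zrsr1 rose by 1.65 and its host Commd1 fell by 0.52, and Mcts2, from the further list, rose by 1.04 while its host H13 fell by 0.98 (log2, edgeR with TMM). With library size only, Zrsr1 was at 0.68 and called, while Mcts2 was at 0.07 and was not. Nap1l5, a further retrogene of that list, had at most 7 counts in a library and was not tested. Mcts1, the X-linked relative of Mcts2, had a log2 fold change of -0.56. These pairs were noticed after the values were seen, and with the strand setting and the treatment of multiply mapped reads not given, the reads of each pair cannot be told apart.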
